A study of Schizosaccharomyces pombe with 2 samples.

Results

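The genes described here are *map2*, *mfm1*, *mfm2*, *mam1* and *mam4*, which encode the precursors of the fission yeast mating pheromones and the machinery that modifies and exports one of them. They are 5 of the 4997 features of an oligonucleotide array hybridized with RNA from nitrogen-starved cells. The files carry no gene names, so each gene was found as the feature whose deposited log2 ratio equals the one in the published list of genes lowered in *lsg1Δ* cells, within 0.00005. The members were therefore chosen by their ratio between the strains, and the ratios below are a description without a test. The *lsg1Δ* strain JT659 has the genotype h90 *lsg1::kanR ade6-M216 leu1*, with the whole *lsg1* ORF exchanged for a drug-resistance cassette, which removes the γ subunit of the CTDK-I kinase. The wild-type strain JY450 is h90 *ade6-M216 leu1*, so both strains share the adenine and leucine mutations and the homothallic mating-type locus. Both were moved from minimal medium to its nitrogen-free form and collected 2.5 h later (the treatment label alone gives 2 h). There is 1 array per strain, no second clone or culture, and so no p-value, and an effect of the deletion and a difference between 2 cultures or 2 arrays cannot be told apart.

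Fission yeast cells of the P and M mating types find each other through a pair of secreted peptides. P cells make P-factor, an unmodified peptide that is cut from tandem copies in the *map2* product and is sensed by the receptor Mam2 on M cells. M cells make M-factor from short precursors encoded by the redundant genes *mfm1*, *mfm2* and *mfm3*. M-factor is farnesylated and carboxyl-methylated, the methylation being the work of Mam4, leaves the cell through the ABC transporter Mam1, and is sensed by the receptor Map3 on P cells. These genes are known to be turned on by nitrogen starvation through the HMG-family factor Ste11. A homothallic culture holds cells of both types, because they switch, and RNA of the whole culture was measured. Fewer cells of one type and less RNA per cell cannot be told apart here.

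All 5 genes were lower in *lsg1Δ* cells than in wild-type. The precursor genes differed most, with *map2* 18.6-fold, *mfm1* 13.6-fold and *mfm2* 8.39-fold lower. These sizes depend on the background correction. Their log2 ratios of -4.22, -3.77 and -3.07 were -3.68, -3.12 and -2.47 with no background correction. In *lsg1Δ*, 3 *map2* and 2 *mfm1* probes were below background, and all 7 *mfm2* probes were above it. The part of these probes in the shifts was not tested. The methyltransferase gene *mam4* and the transporter gene *mam1* were 2.75-fold and 2.44-fold lower. Of all 4997 features, 1.06% (53) passed 2-fold in this direction and 0.34% (17) in the other (6 features with no background correction, 26 with an RMA background adjustment), and the median log2 ratio was 0.01. Since the 5 were selected as lowered, nothing is read from the contrast with that 1.06%.

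**Figure D1:**
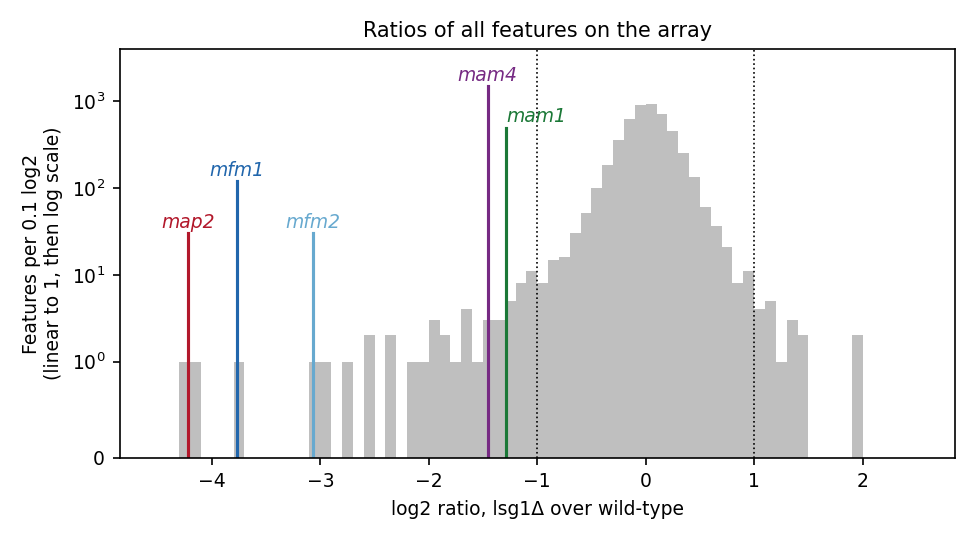
Number of features in each 0.1-wide bin of the log2 ratio of *lsg1Δ* over wild-type, for all 4997 features (count axis linear to 1 and logarithmic above), with the 5 genes as colored lines whose height carries no value, and 2-fold marked by dotted lines. The precursor genes lie at -4.22, -3.77 and -3.07, at the low end of the range, and *mam4* and *mam1* lie at -1.46 and -1.29, in the lower tail.

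Each gene is represented by 7 probes, each printed at 2 spots. The duplicate spots of the 35 probes gave log2 ratios that differed by a median of 0.18 and at most 0.59, against a median of 0.17 and a 95th percentile of 0.50 over all 34977 probes. All 70 spots of these genes, and so all 35 probes, were lower in *lsg1Δ*, as were 47.6% of all probes on the array. All 35 probes were below a log2 ratio of -1, as were 1.38% of all probes. None of the spots was saturated. Spots of other genes within 5 positions on the array had median log2 ratios between -0.21 and 0.26 around each of the 70 spots. The median intensity over all spots was 5685.5 in *lsg1Δ* and 6737 in wild-type. The lowest 5% of spots, used as the background level, ended at 912 in *lsg1Δ* and 1108.65 in wild-type. That level is a set share of the spots, so a probe below it was dim and not shown to be undetected. For reference, the deleted *lsg1* itself gave spots of 154 to 221 on the *lsg1Δ* array, against 1339 to 12486 on the wild-type array. The lowest *lsg1Δ* spots of *map2*, *mfm1*, *mfm2*, *mam1* and *mam4* were brighter, at 513, 751, 912, 779 and 421. With the processing used here, *lsg1* had a log2 ratio of -4.13 (SD 1.29 over 7 probes), or 17.5-fold lower. With its *lsg1Δ* level replaced by the lowest signal of any probe above background, *lsg1* was at least 5.84-fold lower under that processing. In the authors' deposited values its log2 ratio was -1.87, a smaller fall.

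**Figure D2:**
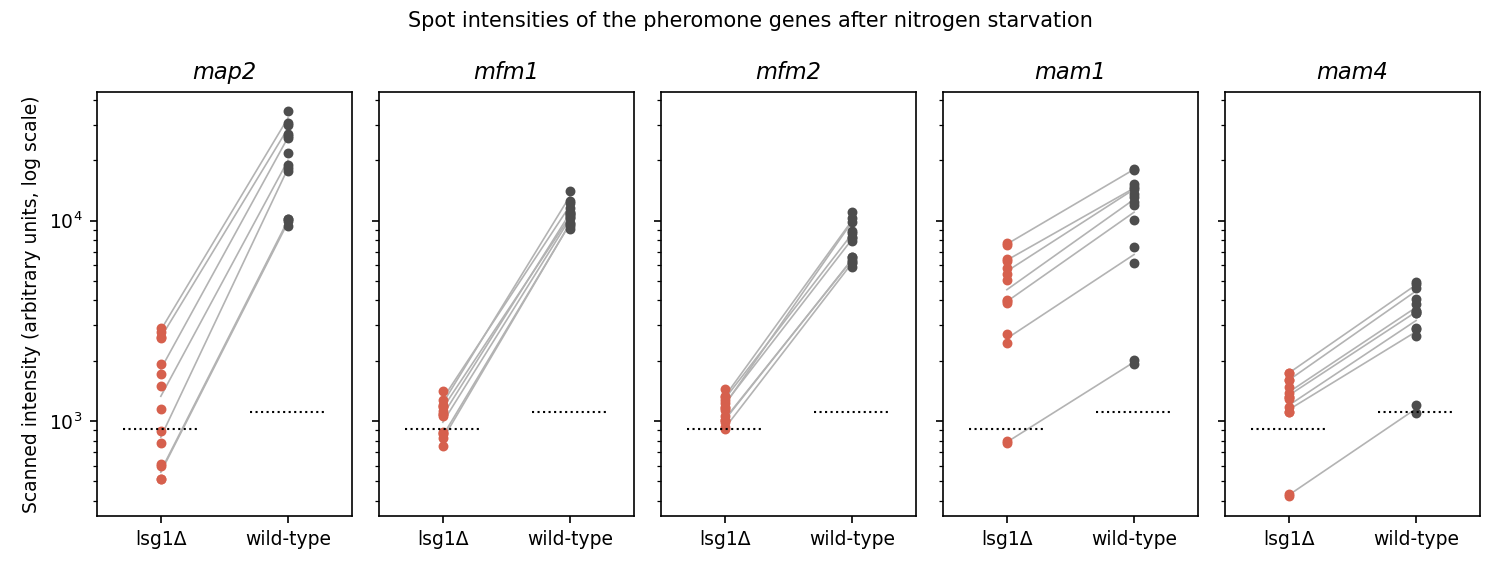
Scanned intensity (logarithmic axis) of the 14 spots of each gene on the *lsg1Δ* array, left, and on the wild-type array, right, with lines joining the means of each probe and dotted lines at the background level of each array. Every line slopes upward to wild-type, steeply for *map2*, *mfm1* and *mfm2* and less so for *mam1* and *mam4*. In *lsg1Δ*, the spots of *mfm1* and *mfm2* lie near the background level. Those of *map2* (513 to 2905), *mam4* (421 to 1741) and *mam1* (779 to 7706) range from below it to above it.

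The P-factor precursor gene *map2* (SPCC1795.06, feature TI4896S000372) had probe means of 2610, 2846, 1329, 1817.5, 555.5, 564 and 832 in *lsg1Δ* cells, in order of probe position. In wild-type cells the same probes gave 28895.5, 32479, 19971, 26013.5, 9810.5, 10060 and 18253.5. The lowest wild-type probe was thus above the highest *lsg1Δ* probe, and the 2 groups of intensities did not overlap. The summarized log2 ratio was -4.22 (SD 0.74 over 7 probes).

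The *map2* ratio was not the same along the gene. The probes at positions 28 and 41 had log2 ratios of -3.48 and -3.50, those at 53 and 261 had -4.22 and -3.97, and those at 510, 536 and 547 had -5.03, -5.05 and -5.18. Positions are bases along the design sequence as the files give them (the end they count from not given in the sources used here). The probes with the lowest ratios are the 3 that were below background in *lsg1Δ*. Without any background correction the 7 ratios ran from -3.24 to -4.22 in the same order of groups, and the plain scanned intensities differed by 11.1-fold at position 28 and by 21.9-fold at position 547. The part of dim signal in this gradient was not tested beyond that. The spread over the probes was wide for this array, where 98.0% of features had a smaller SD and the median SD was 0.15. Over the features lower by more than 2-fold the median SD was 0.31. Leaving out 1 probe at a time put *map2* between -4.63 and -4.10.

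**Figure D3:**
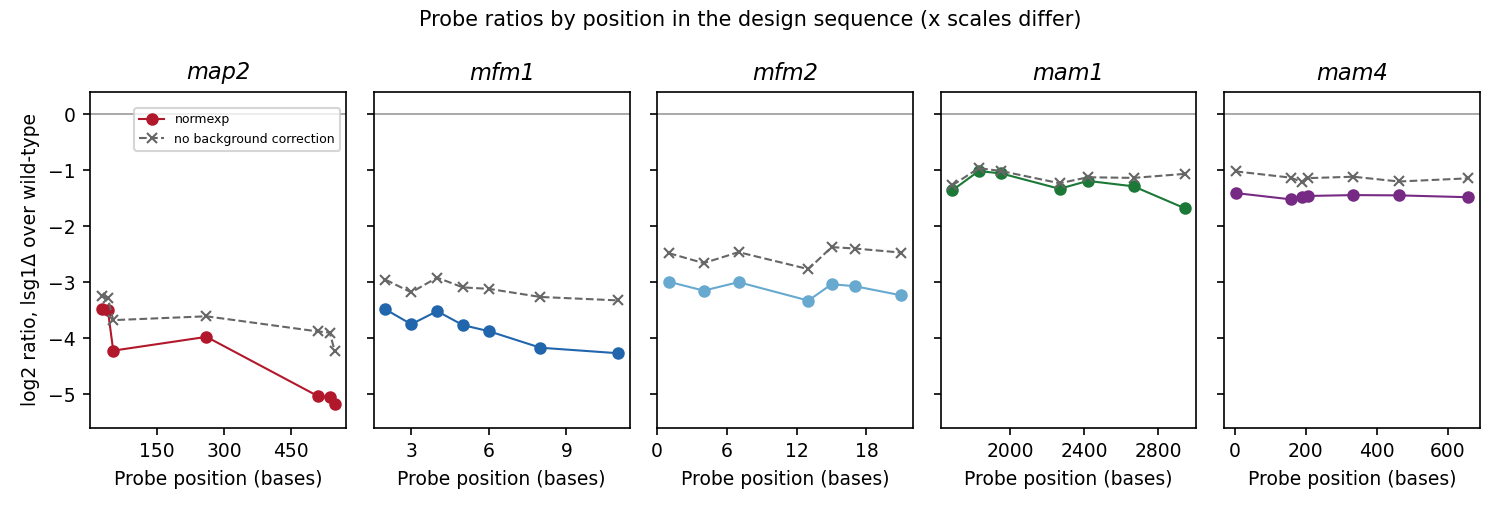
Log2 ratio of *lsg1Δ* over wild-type for each probe against its position in the design sequence in bases, with the normexp background correction (colored circles) and without any (gray crosses), in 1 panel per gene with its own position scale. *map2* declines along the sequence, *mam4* is level over 655 bases, and the *mfm1* and *mfm2* probes lie within 9 and 20 bases.

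The M-factor precursor gene *mfm1* (SPAPB8E5.05, feature TI4896S004775) had probe means of 1294.5, 1228.5, 1161, 1071, 987, 844.5 and 813 in *lsg1Δ* cells. In wild-type cells they were 11905, 13261.5, 10477, 10885.5, 10223, 9669 and 9692.5. The strains did not overlap, and the scanned intensities differed by 9.02-fold to 11.9-fold. The summarized log2 ratio was -3.77 (SD 0.30 over 7 probes), and the probes ranged from -3.48 to -4.27. The 5 probes above background in *lsg1Δ* had log2 ratios of -3.48 to -3.87, and the other 2, at positions 8 and 11, had -4.17 and -4.27.

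The second M-factor precursor gene, *mfm2* (SPAC513.03, feature TI4896S003970), had probe means of 1291.5, 1328, 1221, 1205, 1025, 1013.5 and 922.5 in *lsg1Δ* cells. In wild-type cells they were 8583, 10013.5, 8069.5, 9860, 6370, 6416.5 and 6141. The strains did not overlap here either. All 7 probes stayed just above background in *lsg1Δ*, and the scanned intensities differed by 6.21-fold to 8.18-fold. The summarized log2 ratio was -3.07 (SD 0.13), with probes between -3.33 and -2.99.

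The probes of these 2 genes are not separate readings of the transcript. The 7 *mfm1* probes start within 9 bases of each other, at positions 2, 3, 4, 5, 6, 8 and 11, and the 7 *mfm2* probes within 20 bases, at positions 1 to 21. The median feature spreads its probes over 860 bases, and only 7 features (0.14%) have a span as short as that of *mfm1* and 25 (0.50%) one as short as that of *mfm2*. The probe SDs of both genes therefore describe nearly the same stretch read several times. That of *mfm1*, 0.30, was still larger than the SD of 93.8% of features, but near the median of 0.31 over features lower by more than 2-fold. The probe ranges of *mfm1* and *mfm2* did not overlap, the difference of *mfm1* minus *mfm2* being -0.70 on the log2 scale and -0.66 in the authors' deposited values. The probe range of *map2* overlapped that of *mfm1*, and with only the probes above background on both arrays they were at -3.74 and -3.75. Their order thus changes when the dim probes are left out. The similarity of *mfm1*, *mfm2* and *mfm3* to each other could lead a probe to read more than 1 of them, and the probe sequences were not used here, so this was not tested. *mfm3* is not among the features that could be named and was not analysed here.

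**Figure D4:**
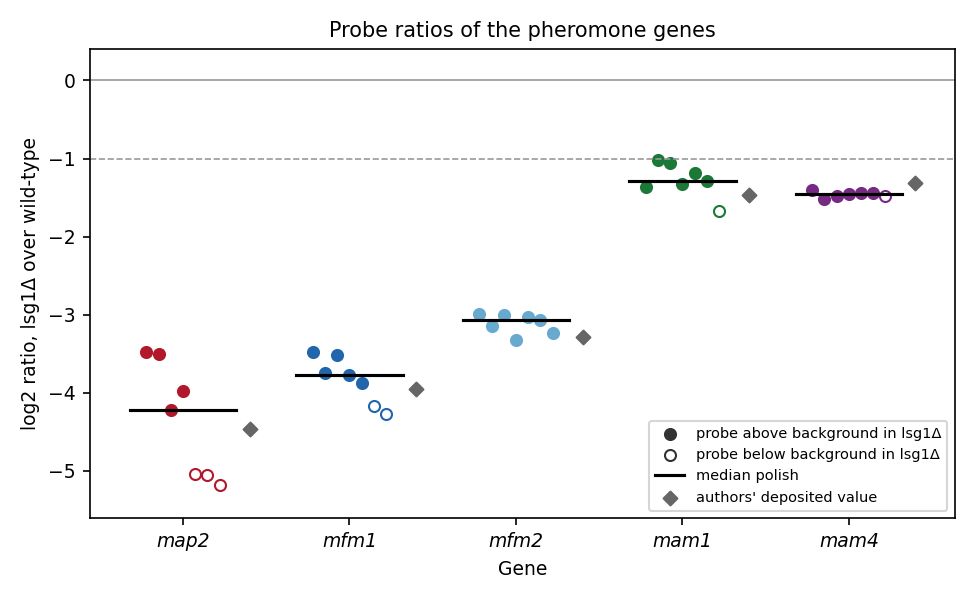
Log2 ratio of *lsg1Δ* over wild-type for the 7 probes of each gene in order of position (filled, above background in *lsg1Δ*; open, below), with the summarized ratio as a bar, the authors' deposited value as a diamond and 2-fold as a dashed line. The precursor genes lie between -5.18 and -2.99 and *mam1* and *mam4* between -1.68 and -1.01, with no overlap between these groups of probes.

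The gene of the M-factor transporter, *mam1* (SPBC2G5.09c, feature TI4896S001948), had probe means of 4520, 6344, 7629, 3946.5, 5587, 2581 and 785 in *lsg1Δ* cells. In wild-type cells they were 12760, 14514.5, 18009, 11008, 14328, 6770.5 and 1970. Every probe was lower in *lsg1Δ*, although the intensities of the whole set overlap between strains, the last probe being dim in both. The scanned differences ran from 2.29-fold to 2.82-fold, with 2.51-fold at that last probe, and the summarized log2 ratio was -1.29 (SD 0.22 over 7 probes). The last probe, the one below background in *lsg1Δ*, had the lowest ratio after background correction, -1.68, against -1.06 with no correction. The other 6 lay between -1.36 and -1.01. All 7 probes fall at positions 1684 to 2944 of the design sequence, so its part before position 1684 was not read.

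The methyltransferase gene *mam4* (SPAC10F6.12c, feature TI4896S003256) had probe means of 1141, 1199.5, 1602, 1395.5, 1344.5, 1737 and 428 in *lsg1Δ* cells. In wild-type cells they were 2793, 3173, 4456.5, 3692, 3504, 4785 and 1153.5. Each probe was lower in *lsg1Δ*, while the sets overlap because the last probe was dim on both arrays. The scanned differences were close to each other, from 2.45-fold to 2.78-fold, over probes that span 655 bases. The summarized log2 ratio was -1.46 (SD 0.036 over 7 probes), and only 7 features had a smaller SD. That SD is not the error of the ratio. The first spots of the probes alone gave -1.51 and the second -1.39, the duplicate spots of a single probe differed by up to 0.30, and the ratio was -1.14 with no background correction. With an RMA background adjustment it was -0.88, the only value of the 5 genes that was not past 2-fold under the alternatives run.

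*mam1* and *mam4* did not separate from each other. Their probe ranges overlapped, *mam1* being higher by 0.17 on the log2 scale, and in the authors' deposited values and with the RMA adjustment *mam1* had the lower ratio. Between the precursor genes and this pair the ranges of probe ratios were apart, the smallest difference being that of *mfm2* minus *mam4*, -1.61 on the log2 scale. The summarized ratios of the precursor genes were below those of the pair in all 11 alternatives as well, which reuse the same 2 arrays. In the authors' deposited table of normalized intensities, the *lsg1Δ* values were 576.24 for *map2*, 477.12 for *mfm1*, 498.61 for *mfm2*, 3154.8 for *mam1* and 538.63 for *mam4*. The wild-type values there were 12687 for *map2*, 7354.83 for *mfm1*, 4859.51 for *mfm2*, 8692.84 for *mam1* and 1339.52 for *mam4*. For all but *mam1* the *lsg1Δ* value was nearer to the lowest of any feature on that array, 333.33, than to its median of 4026.31. On the wild-type array, with a lowest value of 334.21 and a median of 4109.88, this held for *mam4* alone.

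**Figure D5:**
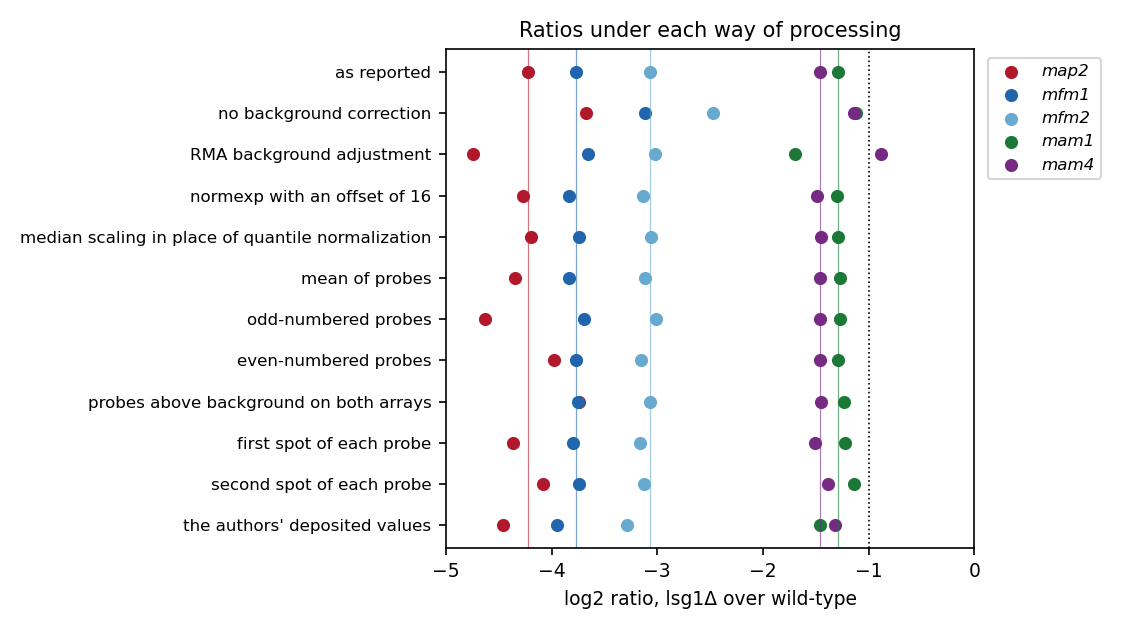
Log2 ratio of *lsg1Δ* over wild-type for the 5 genes under the processing used here (top row) and 11 alternatives, with thin lines at the values of the top row and 2-fold as a dotted line. *map2*, *mfm1* and *mfm2* stay below *mam1* and *mam4* in every row, while *mam4* ranges from -1.51 to -0.88 and changes places with *mam1*.

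The genes named here that are specific to either mating type were lower. All were named through the published list of lowered genes, so their direction was fixed beforehand. The M-cell gene *mfm3* was not identified. Of the P-cell genes, *map2* was at -4.22 and the M-factor receptor gene *map3* at -2.39 (SD 0.70 over 7 probes). Of the M-cell genes, *mfm1*, *mfm2* and *mam1* were at -3.77, -3.07 and -1.29 and the P-factor receptor gene *mam2* at -1.60 (SD 0.13). In *lsg1Δ*, 4 of 7 *map2*, 5 of 7 *mfm1*, 7 of 7 *mfm2* and 6 of 7 *mam1* probes were above background, and in wild-type all probes of these genes were. *sxa2*, whose carboxypeptidase product degrades P-factor, had a median probe intensity of 2369.5 in *lsg1Δ* and 6014 in wild-type and a log2 ratio of -1.30 (SD 0.24). *ste11* had medians of 7770.5 in *lsg1Δ* and 23546 in wild-type and a log2 ratio of -1.41 (SD 0.15). With the processing used here, the ratio of *ste11* is close to those of *mam4* and *mam1*, and smaller in size than those of the precursor genes. In the authors' deposited values *ste11* was at -1.67, *mam4* at -1.31 and *mam1* at -1.46.

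A list of 25 genes of pheromone production, sensing, signaling and transcription was drawn up for comparison. Of these, 16 could be identified, the 5 genes described here among them, all through the published list of lowered genes. The median log2 ratio over the 16 was -1.62, against 0.01 over all features. Of the 16, 15 were lower by more than 2-fold, as were 1.06% of all features. The exception was *byr1*, the MAP kinase kinase gene, at -0.88 (SD 0.10). None was higher by more than 2-fold. Only lowered genes can be named here, so the count carries no information on the direction of the pathway. Among the genes of pheromone maturation, the kexin-type protease gene *krp1* and the farnesyltransferase genes *cpp1* and *cwp1* were not identified and were not analysed here.

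Over the 2 arrays, likeness between genes comes down to the log2 ratio. With the 5 genes themselves and the deleted *lsg1* left aside, the nearest named genes to *mam1* were *gpa1*, the G protein α subunit gene (-1.28, SD 0.32), and *sxa2*, at differences of 0.0034 and -0.013. For *mam4* they were *ste11* and the cyclin gene *cig2* (-1.52, SD 0.63). For *mfm2* they were *rgs1*, a regulator of G protein signaling (-2.91, SD 0.45), and the kinase gene *ppk33* (-2.75, SD 0.31). The same 2 genes were the nearest to *mfm1* and *map2*, but at distances of 0.86 and 1.31 or more. These neighbors and distances belong to the processing used here. In the authors' deposited values *rgs1* was at -3.68, between *mfm1* at -3.95 and *mfm2* at -3.28. There *gpa1* and *sxa2* were at -1.71 and -1.63, against -1.46 for *mam1*.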

How the data were processed

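RNA of nitrogen-starved *lsg1Δ* and wild-type cells was hybridized to single-color (Cy3) arrays, 1 for each strain. Spot intensity in the deposited scanner files is on a linear scale and was acquired for the authors by Roche Applied Science. The deposited series table holds intensity normalized there, the method not given in the sources used here. The 69954 spots per array were background-corrected with normexp (offset 50) and quantile-normalized in limma 3.58.1 (R 4.3.3). Duplicate spots were averaged on the log2 scale, and probes were summarized by median polish. A probe was above background when the mean of its spots exceeded the lowest 5% of its array. The number of arrays limits the precision, and SDs are spreads over probes.

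Rows 1 to 4997 of the series table were assigned to the feature identifiers in sorted order (Pearson r across features 0.98 with the scanned levels on either array), and the rest repeat them. The 5 genes matched their published ratios within 1.3e-05, the next feature being at least 0.0012 away. Just inside the published list is SPAC27D7.10c at a deposited log2 ratio of -1.005, and just outside an unnamed feature at -0.995. Symbols come from RefSeq (ASM294v3), whose gene lengths, 489 to 4082 bases, contain the probe positions. No sequence or coordinate is shown. The processing was tested on simulated arrays with known changes, all smaller than the falls of the precursor genes, so sizes like theirs were not tested. The simulation scaled the whole scanned intensity, background included, so the part of background in dim probes was not tested by it either. The members, the list and the named genes (the 5 genes, *lsg1*, *ste11*, *mam2*, *map3*, *sxa2* and the 2 nearest ratios for each member) were chosen with earlier results of these data known; *byr1* was named after its value was seen. The alternatives are given after the results.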

Additional observations from a re-analysis of the deposited data

How the results depend on the processing

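No paired analysis was possible because the strains were not replicated. All 11 alternatives per gene kept the direction, and 54 of 55 values were past 2-fold. The alternatives reuse the same 2 arrays. Among them are the authors' deposited values, by which the genes were chosen, so direction and 2-fold were fixed there. Of the 55, 46 lay within the probe SD and 9 did not. The causes were not tested. The probe SD does not measure the effect of processing. It was 0.74 for *map2* and 0.036 for *mam4*, so the split depends on its width. With no background correction, *mfm1* was at -3.12, *mfm2* at -2.47 and *mam4* at -1.14. With the RMA background adjustment, *mam1* was at -1.70 and *mam4* at -0.88. In the authors' deposited values, *mfm2* was at -3.28 and *mam4* at -1.31, and *mam4* was at -1.51 and -1.39 with the first and second spots alone. Of the 11 values of *mam4*, whose probe SD is small, 5 lay outside that SD. *map2* ranged from -4.74 with the RMA adjustment to -3.68 with no background correction, within its wide SD. Leaving out single probes kept *mfm1* between -3.82 and -3.76, *mfm2* between -3.11 and -3.05, *mam1* between -1.31 and -1.24 and *mam4* between -1.47 and -1.45. The count of lower features ran from 39 to 66, and that of higher features, 17 as reported, was 26 after the RMA adjustment and 6 where no background was corrected. In *lsg1Δ*, probes below background numbered 3 for *map2*, 2 for *mfm1* and 1 each for *mam1* and *mam4*; their part in these shifts was not tested.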
